A study of Mus musculus with 24 samples.

Results

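The 8 genes described here encode ligands that T cells, NK cells and macrophages read on the surface of a tumor cell, and their RNA was followed across 24 sequencing libraries of MC38, a mouse colorectal cancer line. They were chosen by name from the receptors they engage: Cd274, Pdcd1lg2, Cd80, Cd276, Pvr, Nectin2, Cd47 and Tnfrsf14, which are 8 of the 52636 genes in the table. The 24 libraries came from 8 versions of this C57BL/6 line, with 3 samples of each. MC38-WT (passages 7, 8 and 9) was unmodified and was grown without puromycin, and all other lines had been selected with puromycin. MC38-MOCK#1 (passages 4, 5 and 6) carried an empty CRISPR/Cas9 construct and served as the reference for 3 knockouts at those same passages: MC38-COSMC KO, which lacks C1galt1c1 (COSMC, the chaperone of the enzyme that extends the Tn antigen, a single sugar on serine or threonine), MC38-CMAS KO, which lacks Cmas (the enzyme that activates sialic acid), and MC38-DKO, in which both were targeted. MC38-MOCK#2 (passages 6, 7 and 8) carried the mock version of the dCas9-VPR activator and served as the reference for MC38-FUT9 (passages 6, 7 and 8) and for the line labelled MC38-FUT4 (passages 7, 8 and 7), in which the fucosyltransferases Fut9 and Fut4 were to be switched on from the genome. Each line is a single cell line, MC38-COSMC KO having been sorted repeatedly as a bulk for high binding of the lectin HPA, so the 3 samples are harvests of that line at different time points, and the spread between them does not cover the spread between independently made lines.

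Tumor cells can hold back or engage immune cells through such ligands. PD-L1 (Cd274) and PD-L2 (Pdcd1lg2) bind PD-1 on T cells, CD80 binds CD28 and CTLA-4, and B7-H3 (Cd276) is a further member of the B7 family whose receptor is not settled. The poliovirus receptor (Pvr) and Nectin-2 are shared by the activating receptor DNAM-1 and the inhibitory receptor TIGIT, CD47 gives phagocytes a "don't eat me" signal through SIRP alpha, and HVEM (Tnfrsf14) binds BTLA, CD160 and LIGHT. In many cells Cd274 is an interferon target, switched on through IRF1.

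The 8 genes lie on 5 chromosomes of the mouse genome (build GRCm38), and all are annotated as protein coding. Cd274 (ENSMUSG00000016496, chromosome 19, 29367455 to 29388095, plus strand) and Pdcd1lg2 (ENSMUSG00000016498, chromosome 19, 29410919 to 29471157, plus strand) are neighbors, 22823 bases apart. Pvr (ENSMUSG00000040511, chromosome 7, 19903578 to 19921160) and Nectin2 (ENSMUSG00000062300, chromosome 7, 19716644 to 19750483) lie on the minus strand of the same region, 153094 bases apart. Cd80 (ENSMUSG00000075122, 38458933 to 38486933) and Cd47 (ENSMUSG00000055447, 49855618 to 49915010) are both on the plus strand of chromosome 16, at a distance of 11368684 bases, while Cd276 (ENSMUSG00000035914, chromosome 9, 58524298 to 58555437) and Tnfrsf14 (ENSMUSG00000042333, chromosome 4, 154921933 to 154928563) are on minus strands. Cd274, Pdcd1lg2, Cd276, Pvr and Nectin2 are overlapped by an annotated transcript on the other strand, and whether the reads were counted by strand is not given in the sources used here. The overlapping genes that could be matched in the table stayed at 13 normalized counts or less in every library, the highest of them over Pdcd1lg2.

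Promoter windows of 300 bases (250 before to 50 after the start, from RefSeq on GRCm38.p6) were found for 7 of the 8 genes, Pvr being the exception. The start is the RefSeq start throughout, which can differ from the outer end of the gene coordinates given above. The windows of Tnfrsf14, Nectin2 and Cd276 lie wholly inside those coordinates, so windows at another start could hold other motifs and CG counts. Those of 4 genes are shown because they set transcribed genes beside ones that were low or near 0, with the CG dinucleotides in capitals: Cd274 (chr19:29367188-29367487, plus strand), its silent neighbor Pdcd1lg2 (chr19:29410669-29410968, plus strand), Cd276 (chr9:58554984-58555283, minus strand), which has the most CG dinucleotides, and Tnfrsf14 (chr4:154928028-154928327, minus strand), which has the fewest.
Cd274: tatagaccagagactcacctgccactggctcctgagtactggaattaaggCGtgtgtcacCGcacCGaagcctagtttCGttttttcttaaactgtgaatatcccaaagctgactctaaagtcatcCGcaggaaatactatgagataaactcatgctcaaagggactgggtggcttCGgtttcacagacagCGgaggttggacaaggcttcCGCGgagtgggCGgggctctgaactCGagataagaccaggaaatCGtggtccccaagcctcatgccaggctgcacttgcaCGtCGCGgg
Pdcd1lg2: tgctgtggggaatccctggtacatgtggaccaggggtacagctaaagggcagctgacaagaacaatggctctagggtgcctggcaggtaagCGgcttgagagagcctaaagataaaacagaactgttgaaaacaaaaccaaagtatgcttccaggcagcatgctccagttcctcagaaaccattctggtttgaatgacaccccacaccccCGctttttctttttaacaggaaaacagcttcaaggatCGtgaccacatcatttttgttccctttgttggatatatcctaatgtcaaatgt
Cd276: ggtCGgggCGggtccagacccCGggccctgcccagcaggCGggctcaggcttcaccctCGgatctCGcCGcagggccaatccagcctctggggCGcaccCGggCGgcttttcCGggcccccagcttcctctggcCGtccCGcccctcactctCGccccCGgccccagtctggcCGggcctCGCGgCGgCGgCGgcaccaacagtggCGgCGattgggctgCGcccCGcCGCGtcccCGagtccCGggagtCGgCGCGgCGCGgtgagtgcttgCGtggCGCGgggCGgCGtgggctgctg
Tnfrsf14: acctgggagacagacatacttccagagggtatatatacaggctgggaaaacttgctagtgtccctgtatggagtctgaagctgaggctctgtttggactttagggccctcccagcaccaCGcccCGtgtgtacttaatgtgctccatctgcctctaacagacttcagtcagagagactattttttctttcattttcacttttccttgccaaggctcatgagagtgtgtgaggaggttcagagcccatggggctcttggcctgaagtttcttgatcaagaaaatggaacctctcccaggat
The windows of Cd276, Nectin2 and Cd274 held 39, 20 and 15 CG dinucleotides, and the 2 windows of Cd47 held 35 and 36. Those of Cd80, Pdcd1lg2 and Tnfrsf14 held 3, 3 and 2, against a median of 7 over all 32851 windows. The 4 genes with 15 or more were detected in every library, while of the 3 genes with 3 or fewer Cd80 and Pdcd1lg2 were at or near 0 and Tnfrsf14 was low, which is a description of 7 genes. An interferon-type motif, a pair of GAAA sites with 2 bases between them, read on both strands and present in 3.44% of all windows, was found in the Tnfrsf14 window alone (as TTTCATTTTC, its first base 64 bases before the start). An NF-kB-type motif, GGGA and TTTCC with 1 base between them (0.411% of all windows, both strands), was found in none of the 7 genes' windows.

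The values are normalized counts, reads per gene scaled by 1 factor per library and rounded to whole numbers, and they summed to between 10911849 and 12263307 per library. The steps between low values gave an estimated depth of 6800000 to 16200000 reads, so that 1 read was worth 0.755 to 1.67 normalized counts. Cmas RNA stood at 416, 384 and 386 in MC38-MOCK#1, at 117, 93 and 126 in MC38-CMAS KO and at 142, 135 and 122 in MC38-DKO, and was called lower in both knockouts (adjusted p = 0.00168 and 0.00235). C1galt1c1 stood at 242, 220 and 251 in MC38-MOCK#1 and at 145, 163 and 124 in MC38-COSMC KO, where it was called lower (-0.73, adjusted p = 0.0128). In MC38-DKO, at 206, 166 and 175, it was not called (-0.38, adjusted p = 0.459) and overlapped with the 215, 181 and 152 of MC38-CMAS KO, so its RNA does not by itself mark the second knockout. The line labelled MC38-FUT4 went against its label: Fut4 stood at 1, 0 and 1 there and Fut9 at 209, 171 and 186, compared with 955, 641 and 676 for Fut9 in MC38-FUT9. The 13 leukocyte markers summed to 5 to 37 in all 24 libraries, with Cd3e, Cd8a and Ncr1 at 0 throughout, so the ligand counts do not come with a leukocyte signal. Of the intestinal epithelial markers, Epcam and Cdh1 did not exceed 3 in any library, so these markers that a colorectal label would call for were not seen. Of 8 fibroblast and mesenchyme markers, Vim stood between 19787 and 33315 and Fn1 between 5997 and 26791. Others on that list were uneven, with Col3a1 at 24 to 13474, Pdgfrb at 27 to 1100 and Dcn at 0 to 417. Col1a1 stood at 19 to 255, Col1a2 at 4 to 131 and Thy1 at 0 throughout. Against MC38-MOCK#1, 4 of 7 tested were called higher in MC38-CMAS KO (5.76% of all genes called) and 4 in MC38-WT (5.51%). In MC38-MOCK#2 it was 3 (11.3%), in MC38-COSMC KO 2 (11.6%) and in MC38-DKO 0 (0.092%). Among the epithelial markers, Krt20, an intestinal keratin, reached 468 in the line labelled MC38-FUT4. The sum of the 9 epithelial markers was also raised in MC38-CMAS KO (39 to 63, compared with 12 to 19 in MC38-MOCK#1), where 1 of them was called higher.

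Of the 8 ligands, 5 were well expressed in all lines, 1 was low and 2 were at or near 0. Per kilobase of exon, which allows genes to be set side by side, the median over the 24 libraries was 110.0 normalized counts for Pvr, 83.8 for Cd47, 55.1 for Nectin2, 33.7 for Cd274, 26.9 for Cd276 and 2.78 for Tnfrsf14. Pvr varied least, its highest library being 2.00 times its lowest, followed by Cd47 (2.56 times), Cd276 (2.66 times), Nectin2 (2.93 times) and Cd274 (5.47 times). Pdcd1lg2 was at 0 in 22 of 24 libraries and at 1 normalized count in the other two, both of the line labelled MC38-FUT4. Cd80 was at 0 in 21 of 24 libraries, the exceptions being 1 and 1 in MC38-COSMC KO and 4 in the line labelled MC38-FUT4. A count of 0 still allows up to 3 reads, or 2.27 to 5.02 normalized counts per library by counting error alone. Thus, the RNA for PD-L2 and CD80 was not detectable at this depth in nearly all samples, and the differences in the rest concern Cd274, Cd276, Pvr, Nectin2, Cd47 and Tnfrsf14. When lines were ranked by their mean, the samples of neighboring lines overlapped for Cd276, Nectin2, Cd47 and Tnfrsf14 in all 7 steps, for Cd274 in 6 of 7 and for Pvr in 5 of 7.

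**Figure D1:**
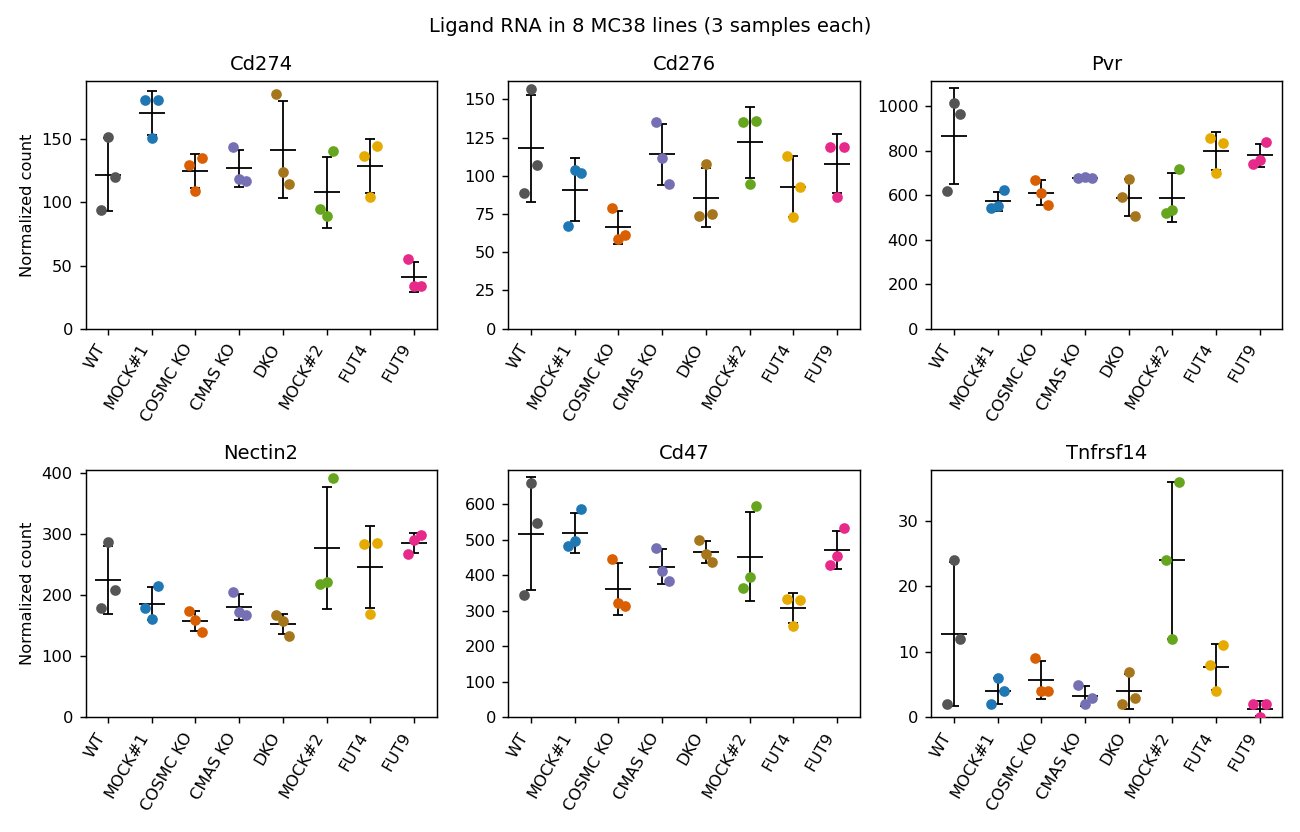
Normalized counts (linear axes from 0) of the 6 ligand genes with appreciable RNA in the 8 MC38 lines. Points are the 3 samples of each line, horizontal bars the mean and whiskers the SD. The 3 MC38-FUT9 samples of Cd274 (34 to 55) sit below all other samples of that gene, while for the other genes most lines overlap.

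In MC38-FUT9 compared with MC38-MOCK#2, 2 of the 6 ligand genes that could be tested passed the threshold, Cd274 and Tnfrsf14, both lower, where 24.1% of all genes tested passed in either direction and 12% were lower. All tests were made with limma on log2(value + 1) and an adjusted p threshold of 0.05, with adjustment over all genes tested. The samples did not overlap for 3 of the ligands, compared with 36.8% of all genes.

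Cd274 RNA stood at 55, 34 and 34 normalized counts in MC38-FUT9 and at 95, 89 and 141 in MC38-MOCK#2. Means were 41.0 ± 12.1 and 108 ± 28.4 (SD, n = 3), and all 3 MC38-FUT9 samples were below all 3 of the reference. The log2 fold change was -1.39 (SE 0.264, 95% interval -2.01 to -0.76, adjusted p = 0.0106). In bulk RNA, fewer cells with the transcript and less transcript per cell cannot be told apart. The call was lost without MC38-FUT9 replicate 2 (log2 fold change -1.27, adjusted p = 0.0627) and without MC38-FUT9 replicate 3 (-1.27, adjusted p = 0.0607). It was also lost when replicate number, which follows the same passages in both lines, was fitted as a block (adjusted p = 0.0537). Against the other reference lines, chosen after seeing the data, it was called as well, with -1.56 against MC38-WT (adjusted p = 0.00986) and -2.07 against MC38-MOCK#1 (adjusted p = 0.000664). None of the other 21 libraries was as low, the lowest being 89 in MC38-MOCK#2.

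**Figure D2:**
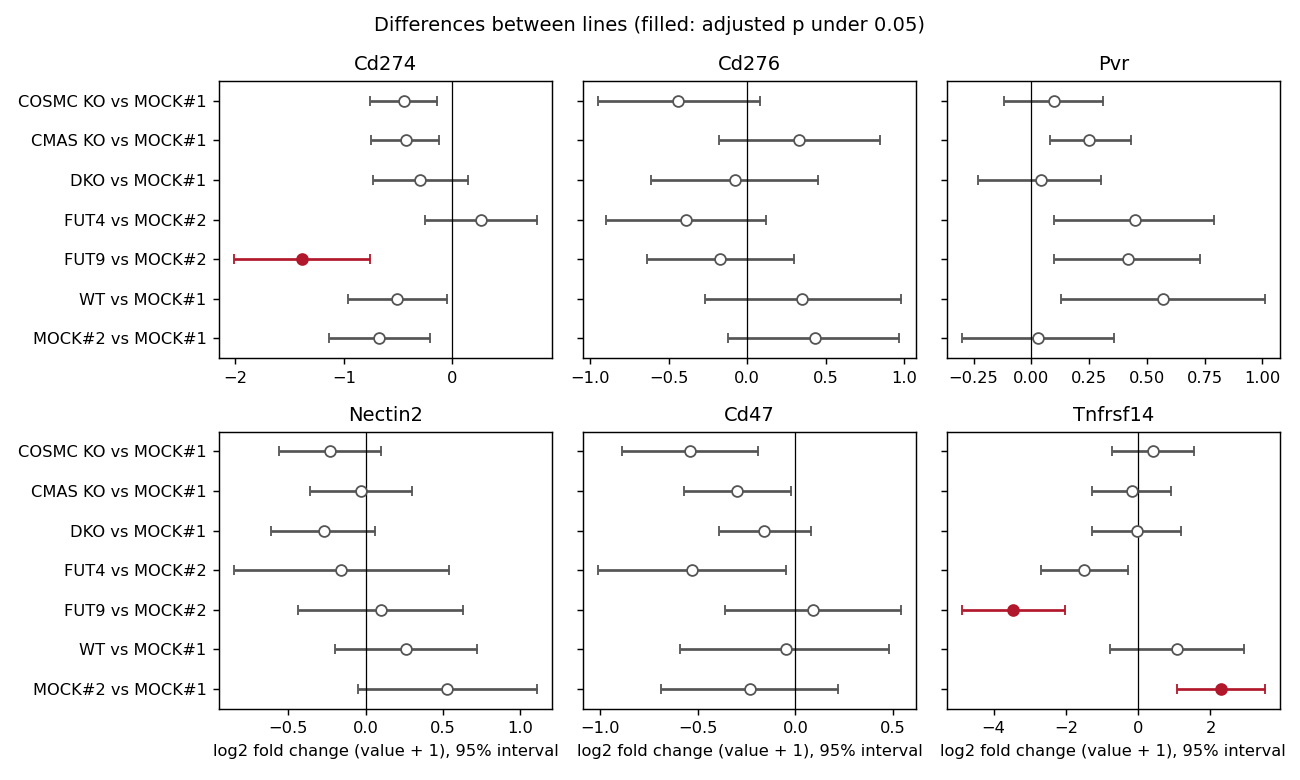
Log2 fold changes on the log2(value + 1) scale with 95% intervals for the 6 ligand genes in the 7 comparisons of lines, each panel with its own horizontal axis. Filled red points have an adjusted p under 0.05, which holds for Cd274 and Tnfrsf14 in MC38-FUT9 (-1.39 and -3.46) and for Tnfrsf14 in MC38-MOCK#2 against MC38-MOCK#1 (2.28).

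The genes that follow interferon moved with Cd274 in MC38-FUT9. Of a list of 16 interferon response genes, 12 fell and none rose, with a median log2 fold change of -3.58 compared with 0.01 over all genes tested. Some of these genes were also listed by the study, as changed in MC38-COSMC KO and not in this comparison. The list was chosen with earlier results of these data known, so its direction is not independent evidence. Oas1a, a sensor of viral RNA, had means of 4.0 and 219 (log2 fold change -5.16), Usp18, a brake on interferon signaling, 1.67 and 135 (-4.76), and the antiviral genes Ifit1 and Oas2 6.33 and 192 (-4.31) and 0.667 and 79.7 (-4.28). Among 19 regulators of PD-L1, 2 fell and 4 rose, where 24.1% of all genes were called, with a median of -0.02. Those that fell were Irf1 (log2 fold change -1.18, adjusted p = 0.00137) and Stat3 (-0.61, adjusted p = 0.0301). Those that rose were Myc (1.08), Cmtm4 (0.83), which protects PD-L1 protein from degradation, Spop (0.70), an adaptor for its ubiquitination, and Nfkb1 (0.29). The part of the interferon genes in the Cd274 difference was not tested.

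Within lines, Cd274 and the interferon list did not always follow each other. In MC38-MOCK#2 the list summed to 5057, 4467 and 11640 normalized counts, replicate 3 being the highest for Cd274 too, and in MC38-WT to 3836, 11544 and 6243, where replicates 1 and 2 were the lowest and the highest for Cd274. In MC38-MOCK#1, however, Cd274 was equal in replicates 1 and 3 (181 and 181) while the list sum was 5473 and 9648. The list sum of MC38-FUT9 (2767, 2578 and 2752) was below all of the others.

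Over all 24 libraries the genes with the pattern most like Cd274, among 13514 with a mean of at least 10, were Tap2 (Pearson's r = 0.945), a subunit of the peptide transporter, Lgmn (0.945), a lysosomal protease, and H2-K1 (0.934), an MHC class I heavy chain. The MC38-FUT9 samples stand apart in all 4 genes, and without them r was 0.831, 0.75 and 0.775 over 21 libraries. Tap2 ranged from 73 to 79 in MC38-FUT9 and from 241 to 818 in the other lines. These are descriptions, since libraries of the same line share their passage history and reference.

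**Figure D3:**
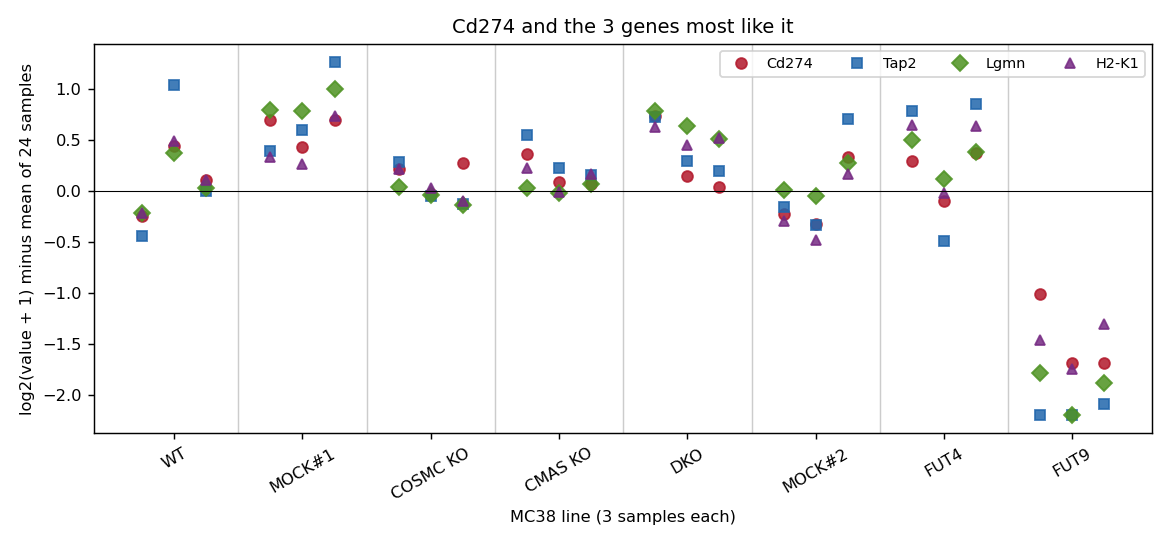
Cd274 and the 3 genes most like it, as log2(value + 1) minus the mean of the 24 libraries, for the 3 samples of each line. All 4 genes are lowest in the MC38-FUT9 samples, and Tap2 follows the within-line spread of MC38-WT and MC38-MOCK#2.

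In the 3 knockouts Cd274 was below MC38-MOCK#1 by a smaller amount, and no ligand passed the threshold in the limma fits of line pairs. The study itself, with the exact test of edgeR at an FDR below 0.05, listed Cd47 among the genes changed in MC38-COSMC KO. Its test and its filter differ from those used here. Limma called 0 of 7 ligands tested in MC38-COSMC KO (2 at an unadjusted p under 0.05, with 11.6% of all genes called), 0 of 6 in MC38-CMAS KO (3 at an unadjusted p under 0.05, with 5.76% called) and 0 of 6 in MC38-DKO (0 at an unadjusted p under 0.05, with 0.092% called). Cd274 stood at 181, 151 and 181 in MC38-MOCK#1, at 130, 109 and 135 in MC38-COSMC KO, at 144, 119 and 117 in MC38-CMAS KO and at 186, 124 and 115 in MC38-DKO. The samples of the 2 single knockouts were all below those of MC38-MOCK#1, whereas those of MC38-DKO overlapped with them. Log2 fold changes were -0.45 (SE 0.132, 95% interval -0.76 to -0.14, adjusted p = 0.0701) for MC38-COSMC KO, -0.43 (SE 0.133, 95% interval -0.75 to -0.12, adjusted p = 0.114) for MC38-CMAS KO and -0.30 (SE 0.192, 95% interval -0.73 to 0.14, adjusted p = 0.74) for MC38-DKO. These 3 comparisons share the MC38-MOCK#1 samples, which had the highest mean of Cd274 among the 8 lines (171 ± 17.3, SD, n = 3). Against MC38-WT, the same knockouts gave 0.05, 0.07 and 0.21 (adjusted p = 0.942, 0.94 and 0.665), so the direction depended on the reference line. Irf1 was called lower in both single knockouts (log2 fold change -0.66, adjusted p = 0.00234 for MC38-COSMC KO and -0.64, adjusted p = 0.0106 for MC38-CMAS KO). Of the 16 interferon response genes, 5 fell in MC38-COSMC KO (led by Usp18, -2.30, and Oas1a, -2.15), 1 fell in MC38-CMAS KO (Oas1a, -2.64) and 0 were called in MC38-DKO, with none rising in these lines. The study listed Irf1, Oas1a and other interferon genes as changed from these same MC38-COSMC KO and mock samples. The calls in MC38-COSMC KO are therefore not independent evidence.

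For Cd47 RNA, the difference of MC38-COSMC KO from MC38-MOCK#1 was unlike that of MC38-DKO from MC38-CMAS KO, in a call that depended on single samples. Each genotype is 1 line, so the targeted genes and the state of each line cannot be told apart. Over all genes MC38-DKO was close to MC38-MOCK#1, with 20 genes called (0.092%). Cd47 stood at 482, 496 and 586 in MC38-MOCK#1 and at 445, 323 and 315 in MC38-COSMC KO, with no overlap, and the log2 fold change was -0.54 (SE 0.148, 95% interval -0.89 to -0.19, adjusted p = 0.058). It stood at 478, 413 and 383 in MC38-CMAS KO and at 500, 461 and 439 in MC38-DKO, which overlapped, and MC38-CMAS KO was below MC38-MOCK#1 without overlap (log2 fold change -0.30, SE 0.115, adjusted p = 0.196). Non-overlapping samples were seen for 2 of the ligands in MC38-COSMC KO, 3 in MC38-CMAS KO and 0 in MC38-DKO, compared with 28.4%, 24.3% and 11.2% of all genes. In a limma fit over those 12 samples, the difference of MC38-DKO from MC38-CMAS KO minus that of MC38-COSMC KO from MC38-MOCK#1 was 0.68 on the log2 scale for Cd47 (SE 0.187, 95% interval 0.28 to 1.08, adjusted p = 0.0199), and 19% of all genes passed. Cd47 was the 1 ligand of 7 that passed this test. The 2 parts themselves were -0.54 (SE 0.132, adjusted p = 0.016) for MC38-COSMC KO against MC38-MOCK#1 and 0.14 (SE 0.132, adjusted p = 0.617) for MC38-DKO against MC38-CMAS KO. The call held in 6 of the 12 fits that left a sample out, and the adjusted p was 0.0535 without MC38-MOCK#1 replicate 3, 0.0677 and 0.0634 without MC38-COSMC KO replicates 2 and 3, 0.051 and 0.0599 without MC38-CMAS KO replicates 2 and 3, and 0.054 without MC38-DKO replicate 1. It was also lost with all 8 lines in a single fit (adjusted p = 0.0974) and without the trend in the variance (adjusted p = 0.0693). The targeted C1galt1c1 passed the same test (0.73, adjusted p = 0.0224), having been lower in MC38-COSMC KO and overlapping between MC38-DKO and MC38-CMAS KO, and its part in the Cd47 result was not tested. For Cd274 the same test gave 0.59 (SE 0.248, 95% interval 0.05 to 1.12, adjusted p = 0.127). Of the interferon response genes, 9 of 16 passed this test, all in the direction of Cd47, with a median of 1.19 compared with 0 over all genes. The test contains the difference of MC38-COSMC KO from MC38-MOCK#1, from which the study had listed some interferon genes. That count is therefore not independent evidence either.

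**Figure D4:**
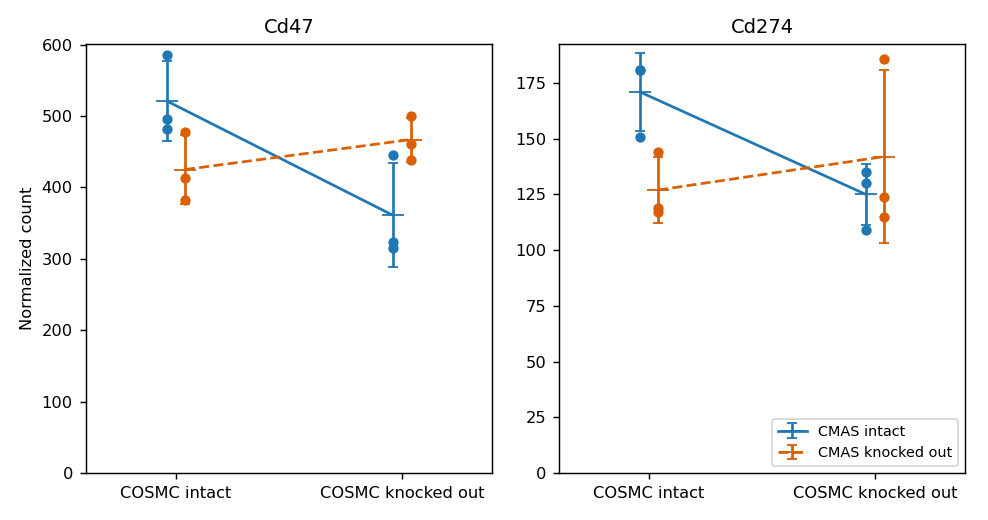
Normalized counts (linear axes from 0) of Cd47 and Cd274 in the 4 lines that cross COSMC and CMAS knockout. Points are samples, bars the mean, whiskers the SD of 3 samples. Cd47 falls from 521 to 361 on average with COSMC loss in cells with Cmas and goes from 425 to 467 in cells without it.

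Cd47 had its lowest mean of the 8 lines in the line labelled MC38-FUT4. It stood at 335, 258 and 330 there and at 366, 395 and 597 in MC38-MOCK#2, without overlap, and the log2 fold change was -0.53 (SE 0.201, 95% interval -1.01 to -0.05, adjusted p = 0.131). Against MC38-MOCK#1, an alternative added after seeing the data, Cd47 was called lower (-0.76, adjusted p = 0.0106). In MC38-FUT9 it stood at 430, 454 and 533, which overlapped with MC38-MOCK#2 (0.09, 95% interval -0.36 to 0.54, adjusted p = 0.792). The other CD47 partner made by the cells was read with it: Thbs1, the thrombospondin that binds CD47, stood at 2, 2 and 2 in MC38-FUT9, at 345, 384 and 753 in MC38-MOCK#2 and at 1256, 969 and 1225 in the line labelled MC38-FUT4. It fell in MC38-FUT9 (log2 fold change -7.28, adjusted p = 8.87e-05) and rose in the line labelled MC38-FUT4 (1.3, adjusted p = 0.0251). Qpctl, the enzyme that modifies the CD47 end bound by SIRP alpha, ranged from 147 to 220 over all 24 libraries and was not called in any comparison. Calr, which encodes calreticulin, a signal for uptake by phagocytes, rose by 0.29 in MC38-FUT9 and by 0.20 in MC38-COSMC KO. The genes most like Cd47 over the 24 libraries were Ift81 (r = 0.871), Sdc4 (0.851) and Npc2 (0.835).

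Pvr was the most abundant of the 8 per kilobase, and none of its differences from the reference lines passed the threshold, although several passed in other settings. It stood at 518, 533 and 716 in MC38-MOCK#2, at 741, 759 and 837 in MC38-FUT9 and at 857, 700 and 836 in the line labelled MC38-FUT4. All MC38-FUT9 samples were above those of MC38-MOCK#2, by 0.42 on the log2 scale (SE 0.132, 95% interval 0.10 to 0.73, adjusted p = 0.0627), while those of the line labelled MC38-FUT4 overlapped (0.45, SE 0.145, adjusted p = 0.0837). MC38-MOCK#2 replicate 3 was the highest of its line for all 6 detected ligands, and without it Pvr was called in both lines (adjusted p = 0.0096 and 0.0284). In MC38-FUT9 it was also called among genes with a mean of at least 10 (adjusted p = 0.035), with all 8 lines in a single fit (0.0442) and with the replicate number as a block (0.0455). Against MC38-MOCK#1, a reference added after seeing the data, Pvr was called higher in MC38-FUT9 (0.45, adjusted p = 0.00619) and in the line labelled MC38-FUT4 (0.48, adjusted p = 0.0223), and against MC38-WT in neither (-0.12 and -0.09). The knockouts stood at 668, 612 and 554 in MC38-COSMC KO, at 679, 680 and 679 in MC38-CMAS KO and at 590, 671 and 506 in MC38-DKO, compared with 542, 550 and 623 in MC38-MOCK#1. MC38-CMAS KO alone of these did not overlap with the reference, with a log2 fold change of 0.25 (SE 0.0742, adjusted p = 0.102), and Pvr was called there without MC38-MOCK#1 replicate 3 (adjusted p = 0.0387). MC38-WT had the highest mean, with 617, 1013 and 967, and its difference from MC38-MOCK#1 was 0.57 (SE 0.188, adjusted p = 0.141, or 0.0253 without MC38-WT replicate 1 and 0.0135 in a joint fit of the 8 lines). Genes with the most similar pattern were Sestd1 (r = 0.894), Slc4a7 (0.885) and Plod2 (0.877).

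The mean of Nectin2 ran from 153 in MC38-DKO to 286 in MC38-FUT9, and no difference from a reference line passed the threshold. It stood at 180, 162 and 215 in MC38-MOCK#1, at 174, 159 and 140 in MC38-COSMC KO, at 205, 172 and 167 in MC38-CMAS KO and at 167, 158 and 134 in MC38-DKO, with overlap in each case. Higher values were found in the other lines, with 218, 222 and 393 in MC38-MOCK#2, 284, 169 and 286 in the line labelled MC38-FUT4, 267, 291 and 299 in MC38-FUT9 and 179, 288 and 209 in MC38-WT. The lines of the second construct had higher means than those of the first, but the difference between the 2 mock lines (0.53, SE 0.244, 95% interval -0.05 to 1.11, adjusted p = 0.23) did not pass although their samples did not overlap. Against MC38-MOCK#2, MC38-FUT9 gave 0.10 (95% interval -0.44 to 0.63, adjusted p = 0.82), or an adjusted p of 0.0281 without MC38-MOCK#2 replicate 3. Against MC38-MOCK#1, again a reference added later, Nectin2 was called higher in MC38-FUT9 (0.63, adjusted p = 0.00757). The genes most like it were Clip2 (r = 0.889), Limd2 (0.878) and Vasp (0.865).

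Of the list of other nectins and NK cell ligands, 14 of 17 genes were in the table. None of 13 tested was called in MC38-COSMC KO (11.6% of all genes), and none of 12 in MC38-CMAS KO (5.76%) or MC38-DKO (0.092%), and at those shares a count of 0 in so short a list says little about it. In MC38-FUT9, where 3 of 12 were called (24.1% of all genes), Ulbp1, a ligand of the NK receptor NKG2D, rose (means of 463 and 157, log2 fold change 1.59), Nectin1 fell (3.67 and 17.0, -1.90), and the adhesion molecule Cadm1 was listed at 0 in all 3 samples compared with a mean of 37.7. In the line labelled MC38-FUT4 (3 of 12 called, 16.1% of all genes), Ulbp1 rose as well (411 and 157, 1.43), while Nectin1 (0.333 and 17.0) and the NKG2D ligand Raet1d (13.3 and 46.0, -1.64) fell. Between the mock lines (3 of 12 called, 11.3% of all genes), Ulbp1 (157 and 445, -1.54), Nectin1 (17.0 and 72.3, -2.02) and Raet1e (29.7 and 64.7, -1.10) were lower in MC38-MOCK#2, so Ulbp1 in both overexpressing lines stood near its level in MC38-MOCK#1. Of the receptors of the 8 ligands, Ctla4, Cd226 and Tnfsf14 were at 0 in every library. Tigit, the receptor of Pvr and Nectin-2, was highest in MC38-MOCK#1 (123, 76 and 43) and MC38-DKO (23, 86 and 66). It stood at 8, 15 and 7 in MC38-COSMC KO and at 12, 3 and 10 in MC38-CMAS KO, near the 23, 3 and 5 of unmodified MC38-WT, and did not exceed 7 in MC38-MOCK#2, MC38-FUT9 and the line labelled MC38-FUT4. Against MC38-MOCK#1 it was called lower in both single knockouts (log2 fold change -2.84, adjusted p = 0.00857 and -3.17, adjusted p = 0.025), and likewise in MC38-WT (-3.17, adjusted p = 0.0467) and MC38-MOCK#2 (-4.92, adjusted p = 0.00685), so these calls follow the high level in MC38-MOCK#1. No library of MC38-MOCK#1 or MC38-DKO exceeded 14 for the sum of the 13 leukocyte markers.

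Cd276 was not called in any comparison with the reference line. It stood at 67, 104 and 102 in MC38-MOCK#1, at 79, 59 and 61 in MC38-COSMC KO, at 135, 112 and 95 in MC38-CMAS KO and at 74, 108 and 75 in MC38-DKO. Although MC38-COSMC KO had the lowest mean of the 8 lines (66.3, n = 3), it overlapped with MC38-MOCK#1 (91.0), and the log2 fold change was -0.44 (SE 0.218, 95% interval -0.95 to 0.08, adjusted p = 0.262). Values in the remaining lines were 135, 95 and 136 in MC38-MOCK#2, 113, 73 and 93 in the line labelled MC38-FUT4, 119, 86 and 119 in MC38-FUT9 and 89, 157 and 107 in MC38-WT. Each of these lines overlapped with its own reference line. The MC38-COSMC KO samples were below all samples of MC38-CMAS KO, MC38-MOCK#2, MC38-FUT9 and MC38-WT, and overlapped with MC38-DKO and the line labelled MC38-FUT4. Log2 fold changes were -0.39 (SE 0.216, adjusted p = 0.282) in the line labelled MC38-FUT4 and -0.17 (SE 0.200, adjusted p = 0.60) in MC38-FUT9. With MC38-MOCK#2 as the reference, an alternative added later, Cd276 was called lower in MC38-COSMC KO (-0.86, adjusted p = 0.0363). Likeness to other genes was weaker than for the other ligands, with Clic4 (r = 0.735), Mtmr14 (0.731) and Adamts4 (0.729).

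Tnfrsf14, which encodes HVEM, was low and uneven. It stood at 2, 0 and 2 normalized counts in MC38-FUT9, corresponding to 4 to 5 reads in all, and at 24, 12 and 36 in MC38-MOCK#2, corresponding to 63 reads. The 2 lines did not overlap, and the log2 fold change was -3.46 on the log2(value + 1) scale (SE 0.599, 95% interval -4.88 to -2.04, adjusted p = 0.00754), a call kept in all 6 fits that left a sample out. The ratio of the reads, scaled for depth, was 16.9 with a 95% exact interval of 6.86 to 53.7 that covers counting error only. The reference itself stood out, however. The samples of MC38-MOCK#1 had 2, 6 and 4, so that Tnfrsf14 was higher in MC38-MOCK#2 than in MC38-MOCK#1 (2.28, SE 0.514, adjusted p = 0.0358), the 1 ligand of 6 that was called between the 2 mock lines, where 11.3% of all genes passed and 28.7% had samples that did not overlap, as did 3 ligands. That call was lost in each of the 6 fits that left a sample out (adjusted p = 0.0531 to 0.115). Against MC38-MOCK#1 the fold change of MC38-FUT9 was -1.18 (adjusted p = 0.167) and against MC38-WT -2.25 (adjusted p = 0.128), so the call rested on MC38-MOCK#2 as the reference. The ratio of the reads was 2.77 (0.908 to 10.0) against MC38-MOCK#1 and 10.2 (3.95 to 33.3) against MC38-WT. These intervals too cover counting error only, not the spread between samples. The line labelled MC38-FUT4 had 8, 4 and 11, below all samples of MC38-MOCK#2 (-1.49, SE 0.509, adjusted p = 0.0973). The knockouts had 9, 4 and 4 in MC38-COSMC KO, 5, 2 and 3 in MC38-CMAS KO and 2, 7 and 3 in MC38-DKO, all within a few reads of MC38-MOCK#1. MC38-WT spread from 2 through 12 to 24.

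In the line labelled MC38-FUT4, limma called 0 of 7 ligands tested (3 at an unadjusted p under 0.05), where 16.1% of all genes passed, and 2 ligands did not overlap compared with 32.1% of genes. Cd274 stood at 137, 104 and 145, overlapping with MC38-MOCK#2 (0.26, 95% interval -0.25 to 0.78, adjusted p = 0.482). Replicate 2 was the lowest of its line for all 6 detected ligands. Of the interferon response genes 1 of 16 fell, Gbp2 (log2 fold change -1.93), and of the PD-L1 regulators 1 rose, Myc (0.57), and 3 fell, Jak2 (-0.49), Cmtm4 (-0.46) and Nfkb1 (-0.26).

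MC38-WT was also compared with MC38-MOCK#1, which carries the empty construct. These lines differed in passage (7, 8 and 9 against 4, 5 and 6) and in puromycin selection as well, so the construct, the selection and the passage cannot be told apart. Limma called 0 of 6 ligands tested (2 at an unadjusted p under 0.05), where 5.51% of all genes passed, and the samples overlapped for every ligand, while 23.4% of all genes did not overlap. Cd274 stood at 94, 152 and 120 in MC38-WT (log2 fold change -0.51, SE 0.194, adjusted p = 0.197) and Cd47 at 346, 660 and 547 (-0.05, 95% interval -0.59 to 0.48, adjusted p = 0.93). MC38-WT replicate 1 was the lowest and replicate 2 the highest of that line for all 6 detected ligands. The 2 mock lines differed in Cd274 by -0.68 (SE 0.196, 95% interval -1.14 to -0.21, adjusted p = 0.0733, or 0.0272 without MC38-MOCK#2 replicate 3), and their samples did not overlap.

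Beyond these genes, calls on the list of 16 other B7, TNF-family and checkpoint ligands were spread over several lines. Lgals9, which encodes galectin-9, a ligand of TIM-3, fell in MC38-COSMC KO (means of 69.7 and 313, log2 fold change -2.26), MC38-CMAS KO (66.7 and 313, -2.28), the line labelled MC38-FUT4 (55.7 and 483, -3.25) and MC38-FUT9 (16.7 and 483, -4.64). In unmodified MC38-WT it stood at 86, 301 and 120, which overlapped with both single knockouts and with MC38-MOCK#1 (262, 270 and 408). The falls in the single knockouts are thus shown against MC38-MOCK#1 only. Lgals3, which encodes galectin-3, was higher than in MC38-MOCK#1 in MC38-COSMC KO (2.11), MC38-CMAS KO (means of 5810 and 2310), unmodified MC38-WT (1.47) and MC38-MOCK#2 (0.75). These calls share MC38-MOCK#1 as the reference. Compared with MC38-MOCK#2 it was higher in MC38-FUT9 (1.22). Fgl1, a ligand of LAG-3, was lower than in MC38-MOCK#1 in MC38-CMAS KO (-1.22), MC38-WT (-1.95) and MC38-MOCK#2 (-3.97). It was higher than in MC38-MOCK#2 in the line labelled MC38-FUT4 (2.63) and MC38-FUT9 (2.23). Cd40 rose in the line labelled MC38-FUT4 (means of 64.7 and 5.0, log2 fold change 3.51) and was listed at 0 in MC38-FUT9, where Tnfsf9, the ligand of 4-1BB, also fell (107 and 162, -0.59). The number of the list's genes called was 2 of 11 tested in MC38-COSMC KO (11.6% of all genes), 3 of 11 in MC38-CMAS KO (5.76%), 0 of 12 in MC38-DKO (0.092%), 3 of 9 in the line labelled MC38-FUT4 (16.1%) and 6 of 9 in MC38-FUT9 (24.1%), where its median was -1.28 compared with 0.01 over all genes. In the control comparisons, 3 of 10 were called in MC38-WT against MC38-MOCK#1 (5.51%) and 3 of 11 between the mock lines (11.3%). The count in MC38-CMAS KO was thus no higher than in lines without a targeted gene. The counts in MC38-COSMC KO and MC38-DKO are near the share over all genes.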

How the data were processed

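RNA of 24 cultures was sequenced as single 50 bp reads. Per the labels and the study's methods, the authors trimmed reads with Sickle, aligned them to GRCm38 with HISAT2 2.0.4 and counted them with featureCounts (Subread 1.5.0-p3, edgeR 3.18.1 for scaling). The deposited values are a score, read counts scaled by 1 factor per library and rounded, not raw counts. Symbols were found for 52403 of 52636 gene IDs. Depth was estimated from the steps between low values (tested on simulated data, factors off by at most 0.0471%). Lines were compared with limma 3.58.1 (R 4.3.3, lmFit and eBayes with a trend) on log2(value + 1), on the 6 samples of a pair or the 12 of the 2 by 2 design, for genes above 0 in at least 2 samples, with Benjamini-Hochberg adjustment. The ligands and gene lists were chosen with earlier results of these data known. Genes named were the 8 ligands, the targeted genes, up to 4 called, non-overlapping genes with a mean of at least 10 per list and comparison, and the 3 most alike genes per ligand with a mean of at least 10. Genes named outside this rule (Qpctl, Stat3, Spop, Nfkb1 in 1 line, markers, and genes at a mean under 10) were chosen after their values were seen. In no comparison did all 3 same-numbered pairs correlate above 0.1, so no pairing was used in the main fits. Passages do match by number between MC38-FUT9 and MC38-MOCK#2 and between the knockouts and MC38-MOCK#1. P-values measure the spread between harvests of a line. A gene of the list of PD-L1 regulators is not reported here.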

Additional observations from a re-analysis of the deposited data

Results flagged for a closer look

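For Cd47, the difference of MC38-DKO from MC38-CMAS KO exceeded that of MC38-COSMC KO from MC38-MOCK#1 by 0.68 on the log2 scale (SE 0.187, adjusted p = 0.0199 by limma over 12 samples). Cd47 was lower in all 3 MC38-COSMC KO samples than in all 3 MC38-MOCK#1 samples, while MC38-DKO and MC38-CMAS KO overlapped. With 1 line per genotype, the targeted genes and the state of each line cannot be told apart. The 12-sample result passed the threshold in 6 of the 12 fits that left a sample out. Its cause was not tested.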

How the results depend on the processing

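Of 65 other settings tried for the counts of called ligands that left no sample out, 52 gave the same count (51 with the same genes, the exception being the replicate block in MC38-FUT9) and 13 changed it, and no direction of a called gene reversed. For MC38-FUT9, 2 became 3 (Cd274, Pvr and Tnfrsf14) with a mean of at least 10 or with all 8 lines in a single fit. For MC38-COSMC KO, 0 became 2 (Cd274 and Cd47) with a mean of at least 10 or with libraries rescaled to the same total, and 1 (Cd47) with median-of-ratios scaling. With all 8 lines in a single fit, Pvr was called in the line labelled MC38-FUT4 and in MC38-WT (1 each in place of 0), the mock lines had 2 (Cd274 and Tnfrsf14), as with a mean of at least 10, and the interaction had 0. With eBayes without a trend, the mock lines and the interaction had 0. Alternatives added after seeing the data changed the reference: with MC38-MOCK#2, MC38-COSMC KO had 1 (Cd276), MC38-CMAS KO 1 and MC38-DKO 1 (both Tnfrsf14). With MC38-MOCK#1, the line labelled MC38-FUT4 had 2 (Pvr and Cd47) and MC38-FUT9 had 3 (Cd274, Pvr and Nectin2), and with MC38-WT, MC38-FUT9 had 1 (Cd274). The cause of these shifts was not tested. Leaving out a sample gave 0 to 1 for MC38-COSMC KO, MC38-CMAS KO, the line labelled MC38-FUT4, MC38-WT, the mock lines and the interaction, 0 to 0 for MC38-DKO and 1 to 4 for MC38-FUT9. Where this leaves 1 sample fewer in a line, the spread is pooled.

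Fitting the replicate number as a block gave counts of called ligands of 0 for MC38-COSMC KO, MC38-CMAS KO, MC38-DKO, the line labelled MC38-FUT4 and MC38-WT, 2 for MC38-FUT9 (Pvr and Tnfrsf14, with Cd274 at an adjusted p of 0.0537), 0 for the mock lines and 1 for the interaction. Over all genes the block gave 4, 1, 0, 1756, 0, 4963, 2168 and 4696 calls in that order, compared with 2563, 1268, 20, 3509, 1192, 5166, 2454 and 4632 without it. In MC38-FUT9 against MC38-MOCK#2 and between the mock lines, the same-numbered pairs all correlated positively (0.0928 to 0.193 and 0.0821 to 0.254). In each, 6 of 6 samples correlated best with their own number. Same-numbered samples of MC38-FUT9 and MC38-MOCK#2 also share their passage, so the block has a basis in the design there. Those of the mock lines differ in passage, and for them the hint comes from the data alone. Whether same-numbered samples were harvested together is not given in the sources used here. In the other 5 comparisons of lines at least 1 pair was negative, down to -0.213. These include the knockouts, whose passages match those of MC38-MOCK#1 by number. Over all genes, leaving out a sample gave 675 to 2137 calls for MC38-COSMC KO, 122 to 876 for MC38-CMAS KO and 0 to 4 for MC38-DKO. Counts near 0, as for Tnfrsf14, Cd80 and Pdcd1lg2, limit what can be told of those genes.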
